A study of Homo sapiens with 4 samples.

Results

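The 32 genes described here encode the gamma-tubulin ring complex, the proteins that hold it at the centrosome, the augmin complex and the machinery that builds centrioles. They were chosen by symbol, and all 32 matched a single gene among the 58735 in the deposited tables. RNA-seq was performed on 4 libraries labelled Huh7, the name of a hepatoma line of human origin. The shNME7 group (n = 2) carried a short hairpin RNA against NME7 and the shCtrl group (n = 2) carried a control hairpin. No other treatment, allele or time is given in the labels, and nothing in them says whether the replicates were separate cultures or whether the knockdown cells were a clone. P-values therefore reflect no more than the spread among these 4 samples, and that spread may be technical.

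The gamma-tubulin ring complex is the template on which cells start new microtubules. Gamma-tubulin is arranged in a ring by the gamma-tubulin complex proteins (GCPs), small MZT proteins bind the GCPs, and adaptors such as NEDD1 and CDK5RAP2 bring the ring to the pericentriolar material that surrounds the centrioles. Augmin recruits the ring to the sides of existing spindle microtubules. Centrioles are copied in each cell cycle under the kinase PLK4. The NME7 protein is known as a component of the ring, so the comparison asks whether transcripts of its partners differ when NME7 is depleted.

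The MZT2A and MZT2B genes are shown first because they are close paralogs on chromosome 2 and MZT2B had the highest log2 difference of the 32. Below are the 250 bases before the RefSeq start of each (GRCh38.p14, 5′ to 3′ on the gene's own strand). The MZT2A window lies on the minus strand at chr2:131492398-131492647 and that of MZT2B on the plus strand at chr2:130182012-130182261. By GENCODE release 29 the genes start further upstream, at 131492743 for MZT2A and 130181737 for MZT2B, so both windows lie within them. The MZT2B window also lies within SMPD4 (130151392 to 130182750), a gene on the opposite strand. Capitals mark the 19 positions at which the windows differ, and the other 231 bases (92.4%) are the same without a gap.
MZT2A: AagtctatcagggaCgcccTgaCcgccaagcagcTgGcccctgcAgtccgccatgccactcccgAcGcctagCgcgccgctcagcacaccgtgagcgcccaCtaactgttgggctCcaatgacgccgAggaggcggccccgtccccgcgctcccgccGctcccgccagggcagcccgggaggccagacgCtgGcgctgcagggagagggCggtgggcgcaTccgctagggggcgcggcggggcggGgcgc
MZT2B: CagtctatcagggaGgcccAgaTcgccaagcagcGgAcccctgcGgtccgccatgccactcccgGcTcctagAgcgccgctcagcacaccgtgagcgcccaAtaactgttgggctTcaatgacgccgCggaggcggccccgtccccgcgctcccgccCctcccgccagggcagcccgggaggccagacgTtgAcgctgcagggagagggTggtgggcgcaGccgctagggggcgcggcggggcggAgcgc

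The libraries held 14877906 to 16991397 recovered fragments, and each of the 32 genes had between 156 and 3105 fragments in every library. All 32 therefore entered the test, which took the 12866 genes with a mean of at least 1 FPKM (fragments relative to gene length and to a scale for each library). The label was checked against liver markers. Of 9 hepatocyte markers, among them albumin (ALB), AFP, APOA1, APOB and HNF4A, 0 reached the filter and 3 were listed at 0 in all 4 libraries. Their summed level was 0.110 and 0.0858 FPKM in shNME7 1 and 2, and 0.0564 and 0.106 FPKM in shCtrl 1 and 2. The data thus go against the liver label, and the cells are called by their label only. Of 5 fibroblast markers 4 were tested, with a summed level of 98.7 and 97.3 FPKM in shNME7 and 103 and 92.1 FPKM in shCtrl, mostly from COL3A1. Of 6 leukocyte markers 4 were at 0 in all libraries. Of 5 markers of multiciliated cells 2 were at 0 in all libraries and 2 were tested. The summed level of these 5 was 9.80 and 11.5 FPKM in shNME7 and 12.1 and 8.15 FPKM in shCtrl. The summed level of 5 endothelial markers was 2.87 and 3.54 FPKM in shNME7 and 2.37 and 2.03 FPKM in shCtrl.

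The libraries also differed in how their values depended on GC content. Over the tested genes the deviation of a library from the 4-library mean had a Spearman rho with GC content of -0.37 and 0.66 in shNME7 1 and 2, and of 0.26 and -0.62 in shCtrl 1 and 2. The difference shNME7 minus shCtrl had a rho of 0.41 with GC content across genes. Differences that the results turn on are therefore also given with the trend on GC content and exon length removed.

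NME7 itself (chromosome 1, 169132531 to 169367967, minus strand, GRCh38) stood at 0.835 and 0.626 FPKM in shNME7 1 and 2, against 3.64 and 3.93 FPKM in shCtrl 1 and 2. The groups did not overlap, and the mean was 5.18-fold lower in shNME7 (0.731 ± 0.148 against 3.79 ± 0.210 FPKM, SD, n = 2 each). On the log2(FPKM + 1) scale limma-trend put NME7 at -1.47 (SE 0.17), but its adjusted p, 0.310, missed 0.05. With the GC and length trend removed the NME7 difference was -1.36. The call of NME7 depended on the setting: limma-trend gave an adjusted p of 1.08e-05 with a replicate block, 1.91e-08 to 0.00288 with a library left out and 0.121 with a crossed block. A second model, limma-voom on fragments, gave NME7 a log2 difference of -2.40 (SE 0.26) with an adjusted p of 0.00121.

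Against that loss of NME7, 0 of the 32 genes passed in limma-trend, where 0% of all tested genes were called. limma-voom called 0 of them too, against 0.106% of 15112 genes. After removal of the trend on GC content and length, limma-trend again called 0 of the 32, against 0.00777% of the genes tested. At an unadjusted p under 0.05, limma-trend had 1 member (MZT2B) and limma-voom 2 (MZT2B and TUBGCP6), against 6.68% and 7.87% of the genes tested. With the GC and length trend removed, MZT2B, CETN3, TUBGCP3 and TUBGCP6 were under that unadjusted p in limma-trend. Their share was not compared with all tested genes, and the lowest adjusted p of the 32 in that fit was 0.231. The log2 differences of the 32 ran from -0.27 for STIL to 0.64 for MZT2B, with standard errors of 0.13 to 0.32. For 30 of them the 95% interval lay within 1 log2 unit either way. MZT2A and MZT2B were the exceptions, with upper limits of 1.21 and 1.20.

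Most of the small differences were negative. Of the 32 genes 23 (71.9%) had a lower mean in shNME7, against 47.8% of all tested genes, and the median log2 difference was -0.11 against 0.01 over all tested genes. With the GC and length trend removed the median was -0.04 and 22 of 32 (68.8%) were lower, against 49% of all tested genes. The shNME7 libraries were the lowest 2 of the 4 for 7 genes (21.9%, against 18.4% of all tested genes) and the highest 2 for 4 (12.5%, against 17.8%). The group difference was larger than both gaps between replicates for 6 genes (18.8%, against 25%), namely TUBGCP3, TUBGCP5, MZT2B, PCM1, STIL and CETN3. The median absolute difference between groups was 0.16, while the median gap between replicates was 0.24 in shNME7 and 0.20 in shCtrl.

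**Figure D1:**
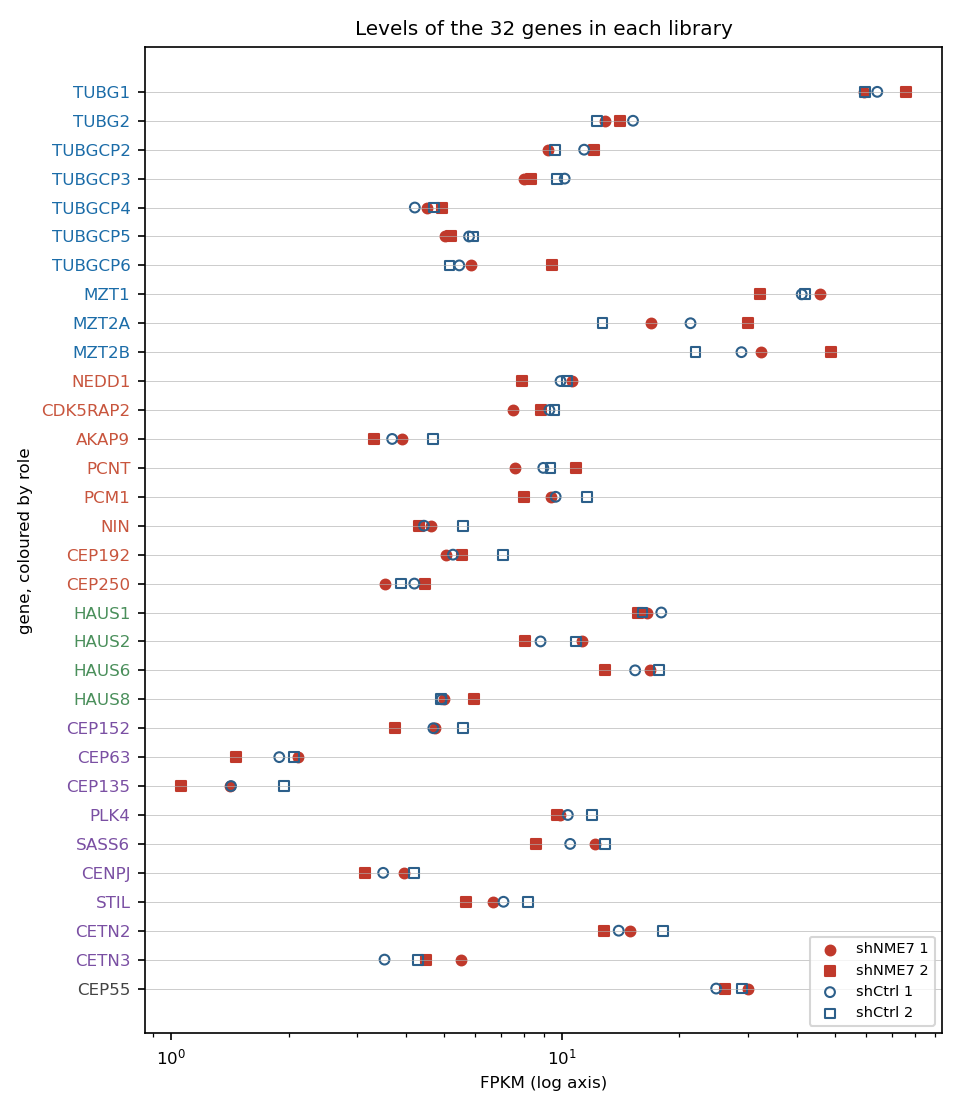
FPKM (log axis) of the 32 genes in the 4 libraries, with shNME7 filled and shCtrl open, circles for replicate 1 and squares for replicate 2, and gene names coloured by role. Values run from 1.06 FPKM for CEP135 to 75.8 FPKM for TUBG1, and the groups overlap for 21 of the 32 genes. Of all tested genes, 17.8% have both shNME7 libraries above both shCtrl libraries and 18.4% have both below.

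Among ring subunits, the gamma-tubulins did not separate the groups. TUBG1, the main gamma-tubulin gene, stood at 59.2 and 75.8 FPKM in shNME7, against 64.1 and 59.5 FPKM in shCtrl. TUBG2, its close paralog, also on chromosome 17, stood at 12.9 and 14.1 FPKM in shNME7, against 15.2 and 12.3 FPKM in shCtrl. TUBG1 was the most abundant of the 32 genes per length in every library and supplied 82.1% and 84.4% of the summed gamma-tubulin FPKM in shNME7, against 80.8% and 82.9% in shCtrl. The paralogs share 50-base stretches, 29.1% of those of TUBG1 being found in TUBG2, so reads could be divided between them. The log2 difference was 0.12 (SE 0.17) for TUBG1 and -0.02 (SE 0.16) for TUBG2. With the GC and length trend removed these became -0.03 and -0.18, so the direction of TUBG1 flipped.

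Of the GCP genes, none of which passed, TUBGCP3, TUBGCP5 and TUBGCP6 did not overlap between the groups. TUBGCP3, which with TUBGCP2 builds the small gamma-tubulin complex, stood at 7.998 and 8.32 FPKM in shNME7, against 10.2 and 9.71 FPKM in shCtrl. Both shNME7 libraries were the lower and the replicates of each group lay close together. TUBGCP3 (chromosome 13, 112485005 to 112588205, minus strand) had a log2 difference of -0.26 (SE 0.13, adjusted p 0.795 in limma-trend), the mean being 1.22-fold lower in shNME7. With the GC and length trend removed it was -0.21 (adjusted p 0.370 in limma-trend). Over 13 alternative settings, some of which cannot change a difference, it stayed between -0.30 and -0.21. Its partner TUBGCP2 stood at 9.24 and 12.1 FPKM in shNME7, against 11.4 and 9.59 FPKM in shCtrl, so the groups overlapped.

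TUBGCP4, TUBGCP5 and TUBGCP6 encode the GCPs present in fewer copies in the ring. TUBGCP6 (chromosome 22, 50217689 to 50244992, minus strand) stood at 5.85 and 9.43 FPKM in shNME7, against 5.47 and 5.16 FPKM in shCtrl. The groups did not overlap, but shNME7 1 lay close to the control libraries and shNME7 2 well above them. The log2 difference was 0.42 (SE 0.22, adjusted p 0.795 in limma-trend), and 0.33 with the GC and length trend removed. Without shNME7 1 it was 0.72, whereas without shNME7 2 it was 0.12. These were the ends of the range of TUBGCP6 over the 13 alternative settings. TUBGCP5 stood at 5.02 and 5.22 FPKM in shNME7, against 5.79 and 5.93 FPKM in shCtrl, a log2 difference of -0.17 (SE 0.13), or -0.10 with the trend removed. TUBGCP4 stood at 4.51 and 4.93 FPKM in shNME7, against 4.21 and 4.71 FPKM in shCtrl. Exons of TP53BP1 on the opposite strand cover 34.3% of the exon bases of TUBGCP4, and whether counting used the strand is not given in the sources used here.

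The MZT genes encode the smallest ring subunits. MZT2B (chromosome 2, 130181737 to 130190729, plus strand) stood at 32.4 and 48.8 FPKM in shNME7, against 28.8 and 21.96 FPKM in shCtrl. Both shNME7 libraries were above both shCtrl libraries, as were 17.8% of all tested genes. The mean was 1.60-fold higher in shNME7 (40.6 ± 11.6 against 25.4 ± 4.84 FPKM, SD, n = 2 each). The log2 difference of MZT2B was 0.64 (SE 0.23, adjusted p 0.729 in limma-trend and 0.499 in limma-voom). It was 0.42 with the GC and length trend removed (adjusted p 0.231), and MZT2B had the highest GC content of the 32 genes, 67.8%. Without shNME7 1 it was 0.93, and without shNME7 2 it was 0.35. These were the ends of the range of MZT2B over the alternative settings.

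MZT2A stood at 16.9 and 29.9 FPKM in shNME7, against 21.3 and 12.7 FPKM in shCtrl, and the groups overlapped. Its log2 difference was 0.43 (SE 0.32), 0.29 with the GC and length trend removed, and 0.82 without shNME7 1. Without shCtrl 2 the MZT2A difference was 0.07, and without shNME7 2 it was 0.03. Of the 50-base stretches of MZT2B, 71.4% occur in other genes, mostly in SMPD4, which overlaps it on the opposite strand and stood at 16.98 and 19.96 FPKM in shNME7, against 17.5 and 16.96 FPKM in shCtrl. Of the 50-base stretches of MZT2A, 15.9% occur in other genes, and 12.4% occur in MZT2B. Both MZT2 genes are therefore uncertain as single genes. Their fragments together numbered 1923 and 3579 in shNME7, against 2222 and 1482 in shCtrl, and so overlapped between the groups.

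MZT1, whose product binds the GCPs and is needed for an active ring, lay at the other end of GC content, at 31.97%. It stood at 45.6 and 32.1 FPKM in shNME7, against 41.1 and 41.9 FPKM in shCtrl. The shNME7 libraries thus lay on either side of the controls, and the log2 difference was -0.11 (SE 0.19), or -0.07 with the trend removed.

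**Figure D2:**
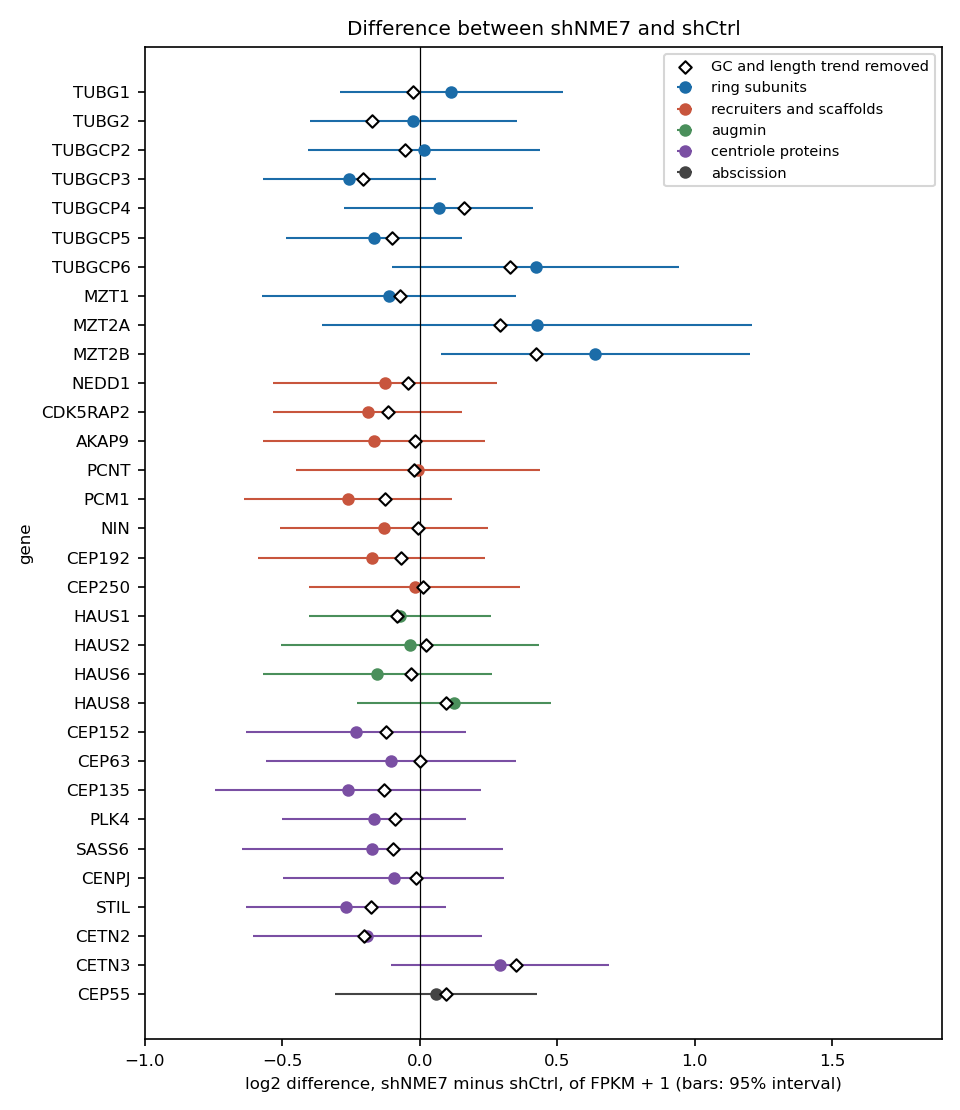
Log2 difference of FPKM + 1, shNME7 minus shCtrl, for the 32 genes (coloured points, with bars for the 95% interval from limma-trend), and the same with the GC and length trend removed (white diamonds). Only the interval of MZT2B lies wholly to the right of 0, from 0.08 to 1.20, and the white diamonds lie closer to 0 for most genes.

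All 8 genes of the recruiters and scaffolds had a lower mean in shNME7, against 47.8% of all tested genes, with 0 called. Their median log2 difference was -0.15. With the GC and length trend removed 7 of the 8 (87.5%, against 49%) were lower, at a median of -0.03. For 2 of these 8 (25%, against 18.4% of all tested genes) the groups did not overlap, the shNME7 libraries being the lower. CDK5RAP2, which binds and activates the ring, stood at 7.49 and 8.85 FPKM in shNME7, against 9.30 and 9.58 FPKM in shCtrl, a log2 difference of -0.19 (SE 0.14), or -0.12 with the trend removed. PCM1, the scaffold of the pericentriolar satellites, stood at 9.38 and 7.98 FPKM in shNME7, against 9.65 and 11.6 FPKM in shCtrl. The PCM1 difference was -0.26 (SE 0.16, adjusted p 0.802 in limma-trend), and -0.13 with the GC and length trend removed.

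NEDD1, the adaptor that attaches the ring to centrosomes and spindles, stood at 10.6 and 7.92 FPKM in shNME7, against 9.93 and 10.3 FPKM in shCtrl. Only shNME7 2 was low, and without that library the log2 difference was 0.06 in place of -0.13. PCNT, the pericentrin gene, stood at 7.60 and 10.9 FPKM in shNME7, against 8.97 and 9.35 FPKM in shCtrl. Here the shNME7 libraries lay on opposite sides of the controls and the difference was -0.01 (SE 0.18). CEP192, which recruits ring and kinases to the pericentriolar material, stood at 5.05 and 5.57 FPKM in shNME7, against 5.27 and 7.09 FPKM in shCtrl.

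AKAP9, the large scaffold that anchors the ring at the Golgi and the centrosome, stood at 3.90 and 3.31 FPKM in shNME7, against 3.68 and 4.68 FPKM in shCtrl. NIN, which anchors microtubule ends at the mother centriole, stood at 4.63 and 4.32 FPKM in shNME7, against 4.44 and 5.59 FPKM in shCtrl. For AKAP9, NIN and CEP192 the highest library was shCtrl 2, and without it the log2 differences were -0.03, 0.01 and 0.01. CEP250, which holds paired centrioles together, stood at 3.53 and 4.47 FPKM in shNME7, against 4.20 and 3.88 FPKM in shCtrl.

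The 4 augmin genes showed no separation beyond the gaps between replicates. HAUS1 stood at 16.6 and 15.7 FPKM in shNME7, against 17.97 and 16.1 FPKM in shCtrl, and HAUS2 at 11.3 and 8.05 FPKM in shNME7, against 8.82 and 10.9 FPKM in shCtrl. HAUS6, which contacts the ring through NEDD1, stood at 16.8 and 12.9 FPKM in shNME7, against 15.4 and 17.7 FPKM in shCtrl. HAUS8, the microtubule-binding subunit, stood at 4.99 and 5.97 FPKM in shNME7, against 4.93 and 4.92 FPKM in shCtrl. HAUS8 was the 1 augmin gene with both shNME7 libraries above, as were 17.8% of all tested genes. Its log2 difference was 0.13 (SE 0.15), or 0.10 with the trend removed. Of the other 4 augmin genes in the list of further genes 3 were tested, and 0 were called, 1 being higher and 2 lower.

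Of the 9 centriole genes 8 (88.9%) had a lower mean in shNME7, against 47.8% of all tested genes, with 0 called. Their median log2 difference was -0.17. With the GC and length trend removed 7 of the 9 (77.8%, against 49%) were lower, at a median of -0.10. PLK4, the kinase that starts centriole duplication, stood at 9.87 and 9.72 FPKM in shNME7, against 10.4 and 11.9 FPKM in shCtrl. STIL, the PLK4 substrate that brings in the cartwheel protein, stood at 6.67 and 5.69 FPKM in shNME7, against 7.09 and 8.21 FPKM in shCtrl. Neither gene overlapped between the groups, but the gaps to the nearest control library were small. The log2 difference was -0.17 (SE 0.14, adjusted p 0.837 in limma-trend) for PLK4 and -0.27 (SE 0.15, adjusted p 0.795) for STIL. With the GC and length trend removed they were -0.09 and -0.18. STIL lies on chromosome 1, 47250139 to 47314147, minus strand.

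SASS6, the cartwheel protein itself, stood at 12.1 and 8.60 FPKM in shNME7, against 10.5 and 12.9 FPKM in shCtrl. CEP152, the centriole receptor for PLK4, stood at 4.73 and 3.75 FPKM in shNME7, against 4.69 and 5.59 FPKM in shCtrl. In both genes shNME7 2 was the lowest library and shCtrl 2 the highest. CEP63, the partner of CEP152, stood at 2.11 and 1.47 FPKM in shNME7, against 1.89 and 2.07 FPKM in shCtrl. CENPJ, which sets centriole length, stood at 3.94 and 3.14 FPKM in shNME7, against 3.49 and 4.19 FPKM in shCtrl.

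CEP135, another cartwheel protein, was the least abundant gene, at 1.42 and 1.06 FPKM in shNME7, against 1.43 and 1.95 FPKM in shCtrl. Both shNME7 libraries again lay below both shCtrl libraries, as for 18.4% of all tested genes, but shNME7 1 and shCtrl 1 were almost level. The log2 difference of CEP135 was -0.26 (SE 0.20) on a scale that understates low genes, -0.13 with the GC and length trend removed, and -0.46 (SE 0.24) in limma-voom (adjusted p 0.671).

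Neither centrin gene passed, and the difference between them was not tested. Centrins are small calcium-binding proteins of the centriole. CETN2 stood at 14.9 and 12.8 FPKM in shNME7, against 13.98 and 18.1 FPKM in shCtrl, a log2 difference of -0.19 (SE 0.17). The CETN2 groups overlapped, and the difference was -0.20 with the trend removed and -0.01 without shCtrl 2. CETN3 (chromosome 5, 90392261 to 90409786, minus strand) stood at 5.53 and 4.49 FPKM in shNME7, against 3.52 and 4.29 FPKM in shCtrl. It was the only centriole gene above the controls in both shNME7 libraries, as were 17.8% of all tested genes. The CETN3 difference was 0.29 (SE 0.16, adjusted p 0.795 in limma-trend) and the mean was 1.28-fold higher. Its GC content was 34.4%, and with the GC and length trend removed the difference was 0.35 (adjusted p 0.269). Over 13 alternative settings, some of which cannot change a difference, CETN3 ran from 0.17 to 0.42. CEP55, which acts at the midbody in the last step of cell division rather than at the centriole, stood at 29.9 and 26.1 FPKM in shNME7, against 24.8 and 28.9 FPKM in shCtrl.

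STIL and CEP152 are shown by their promoter windows, as members of the duplication pathway whose windows hold CCAAT boxes, that of CEP152 also holding a cell cycle homology region. The windows are the 250 bases before the RefSeq start (GRCh38.p14, 5′ to 3′ on the minus strand, the gene's own), at chr1:47314148-47314397 for STIL and chr15:48811070-48811319 for CEP152. Capitals mark each CCAAT box (CCAAT, or ATTGG on the other strand) and each cell cycle homology region (TTTGAA, or TTCAAA on the other strand), words that do not overlap here.
STIL: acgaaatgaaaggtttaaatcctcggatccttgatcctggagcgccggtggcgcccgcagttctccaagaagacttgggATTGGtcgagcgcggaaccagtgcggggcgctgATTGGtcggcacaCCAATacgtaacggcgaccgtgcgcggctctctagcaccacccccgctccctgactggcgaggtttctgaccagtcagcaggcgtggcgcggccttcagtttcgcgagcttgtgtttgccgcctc
CEP152: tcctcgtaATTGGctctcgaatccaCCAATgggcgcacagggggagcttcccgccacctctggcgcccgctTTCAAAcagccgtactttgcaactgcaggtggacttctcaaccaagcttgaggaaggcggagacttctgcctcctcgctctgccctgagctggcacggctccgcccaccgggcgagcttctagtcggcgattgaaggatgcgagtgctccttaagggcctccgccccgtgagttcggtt
RefSeq windows were matched for 27 of the 32 genes. Of these, 13 (48.1%) held CCAAT on either strand, against 37.0% of 27303 genes, and 6 (22.2%) held TTTGAA, against 16.1%. A match is a description of these letters and does not show a bound site.

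Across the 32 genes the deviation of a library from the 4-library mean had a Spearman rho with GC content of -0.69 and 0.82 in shNME7 1 and 2, and of 0.18 and -0.64 in shCtrl 1 and 2. The order was thus weak in shCtrl 1. The 9 genes with at least 50% GC were TUBG1, TUBG2, TUBGCP2, TUBGCP6, MZT2A, MZT2B, PCNT, CEP250 and HAUS8. For 8 of them shNME7 2 was the highest library. Of the 23 genes under 50% GC, shNME7 2 was the lowest library for 16 and shCtrl 2 the highest for 14. The median log2 difference was 0.12 in the GC-rich genes and -0.17 in the others, and 0.01 and -0.07 with the GC and length trend removed. Across the 32 genes, which share these 4 libraries, the log2 difference had a Spearman rho of 0.51 with GC content, and 0.27 after removal of the trend.

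**Figure D3:**
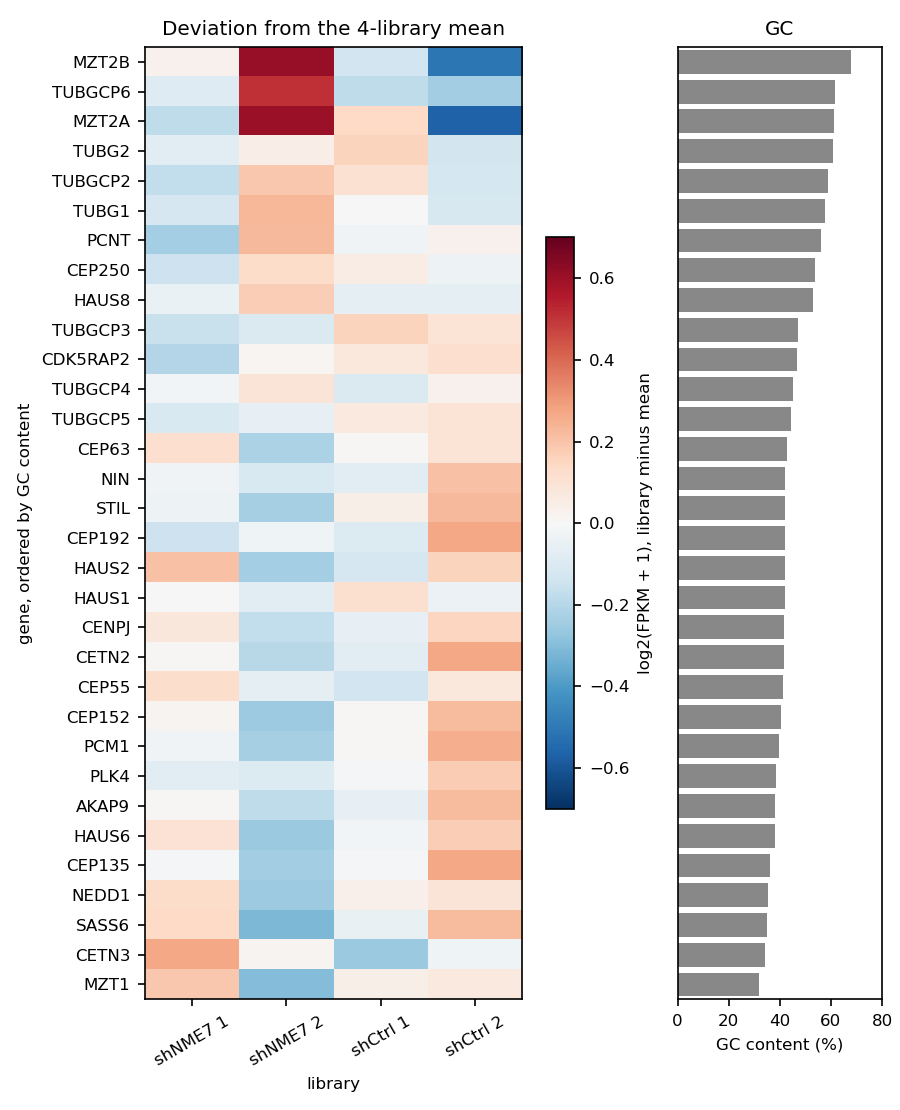
Deviation of log2(FPKM + 1) in each library from the 4-library mean (colour), with the 32 genes ordered by GC content from 67.8% (MZT2B) to 31.97% (MZT1), shown at the right. The shNME7 2 column is mostly red at the top and mostly blue at the bottom, and shCtrl 2 shows mostly the opposite, with CETN3 near 0 in both.

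Set against all tested genes of like GC content (bins 3 percentage points wide), 20 of the 32 genes lay within the middle quartiles of their bin. Above them were MZT2A, MZT2B, TUBGCP6, CETN3 and CEP55. Below them were TUBG2, TUBGCP3, CDK5RAP2, PCM1, CEP152, CEP135 and STIL.

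**Figure D4:**
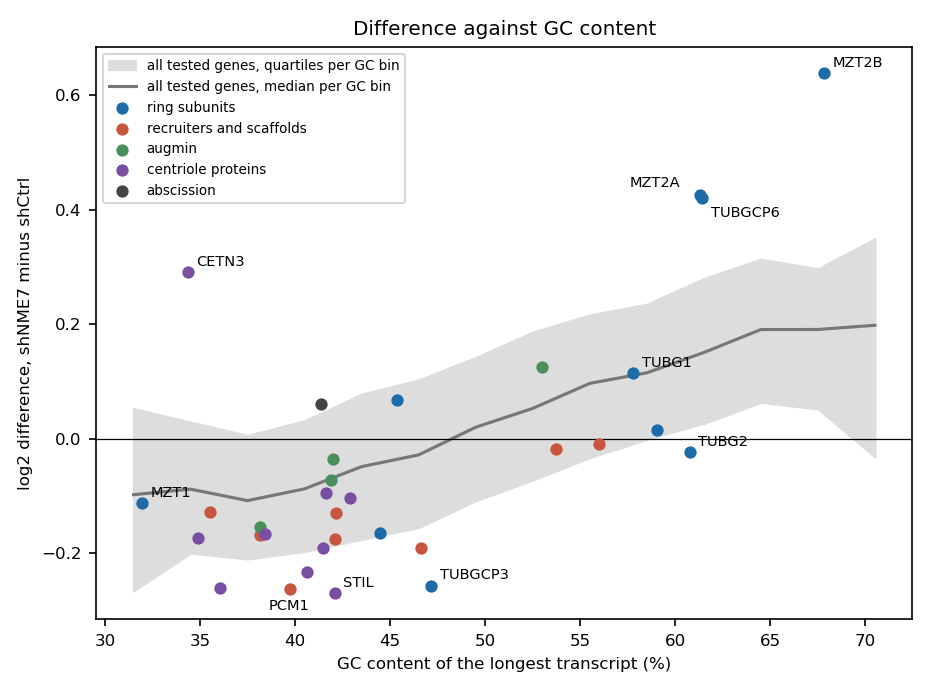
Log2 difference, shNME7 minus shCtrl, against the GC content of the longest transcript for the 32 genes, over the median (line) and quartiles (grey) of all tested genes in bins of GC content. Of the 32 genes 20 lie within the grey band, with MZT2B at 0.64 and CETN3 at 0.29 among the 5 above the grey band.

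Further centrosome genes, listed by role beside the 32, gave the same count, 0 called in limma-trend and in limma-voom. Of 23 other microtubule nucleation and minus-end factors, all tested, 19 (82.6%, against 47.8% of all tested genes) had a lower mean in shNME7 and 9 (39.1%, against 18.4%) had both libraries below (median log2 difference -0.10, and -0.13 with the GC and length trend removed). TPX2, the spindle factor that activates Aurora A, stood at 59.8 and 48.2 FPKM in shNME7, against 65.8 and 72.9 FPKM in shCtrl. CAMSAP2, which caps microtubule minus ends, stood at 13.01 and 11.1 FPKM in shNME7, against 14.3 and 16.5 FPKM in shCtrl. Both were lower in each shNME7 library, with log2 differences of -0.36 for TPX2 and -0.33 for CAMSAP2, or -0.36 and -0.21 with the trend removed.

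Of 25 other centriole assembly and length factors 22 were tested, 15 (68.2%, against 47.8% of all tested genes) with a lower and 7 with a higher mean (median -0.08, and -0.04 with the trend removed). CCP110, which caps the growing centriole, stood at 4.19 and 3.18 FPKM in shNME7, against 4.76 and 5.69 FPKM in shCtrl, and CEP350 at 5.88 and 5.99 FPKM in shNME7, against 7.06 and 7.90 FPKM in shCtrl. Of 14 pericentriolar satellite genes 12 (85.7%, against 47.8%) had a lower mean (median -0.15, and -0.04 with the trend removed), with OFD1 at 7.58 and 6.72 FPKM in shNME7, against 8.99 and 10.3 FPKM in shCtrl. FOPNL, of the same list, stood at 21.7 and 15.5 FPKM in shNME7, against 21.9 and 22.2 FPKM in shCtrl. Of 12 appendage and linker genes 6 had a higher and 6 a lower mean (median -0.01, and -0.03 with the trend removed). Among them CEP170 stood at 11.2 and 9.49 FPKM in shNME7, against 11.98 and 14.01 FPKM in shCtrl, and LRRC45 at 10.1 and 16.1 FPKM in shNME7, against 11.9 and 8.72 FPKM in shCtrl.

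Alpha and beta tubulins form the microtubule wall itself. Of 12 genes 8 were tested, all 8 with a higher mean in shNME7, against 52.2% of all tested genes, and 5 (62.5%, against 17.8%) with both libraries above, at a median log2 difference of 0.24 and 0 called. With the GC and length trend removed 6 were higher and 2 lower, at a median of 0.15. TUBB4B stood at 95.7 and 125 FPKM in shNME7, against 91.3 and 80.9 FPKM in shCtrl, and TUBB6 at 34.2 and 43.2 FPKM in shNME7, against 32.4 and 27.9 FPKM in shCtrl. Tubulin genes resemble each other, so reads could be divided among them.

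Of 8 centrosomal kinase genes 3 had a higher and 5 a lower mean (median -0.01, and 0.02 with the trend removed), with NEK6 at 6.81 and 9.49 FPKM in shNME7, against 7.24 and 7.44 FPKM in shCtrl, and NEK7 at 29.6 and 21.6 FPKM in shNME7, against 27.9 and 29.999 FPKM in shCtrl. Of 7 genes listed for the surveillance of centrosome number 2 had a higher and 5 a lower mean (median -0.04, and 0.006 with the trend removed). USP28 stood at 8.12 and 7.29 FPKM in shNME7, against 7.74 and 9.24 FPKM in shCtrl, and CASP2 at 4.84 and 4.32 FPKM in shNME7, against 5.22 and 5.16 FPKM in shCtrl. Of 15 proliferation genes 4 had a higher mean and 11 (73.3%, against 47.8% of all tested genes) a lower mean (median -0.06, and -0.05 with the trend removed, against 0.01 and 0.005 over all tested genes), with E2F1 at 19.4 and 22.8 FPKM in shNME7, against 27.6 and 23.1 FPKM in shCtrl, and RRM2 at 19.5 and 15.1 FPKM in shNME7, against 20.1 and 23.1 FPKM in shCtrl. In the remaining augmin list HAUS5 stood at 11.96 and 14.6 FPKM in shNME7, against 12.7 and 9.90 FPKM in shCtrl, and HAUS4 at 11.2 and 11.2 FPKM in shNME7, against 12.5 and 10.8 FPKM in shCtrl.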

How the data were processed

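For each of the 4 libraries the authors deposited FPKM values by gene, a unit that the column headers name. HISAT2 2.0.5 and the build hg18 are listed, per the submitters' processing notes. How fragments were counted, on which annotation and strand, was not given in the sources used here. GENCODE release 29 (Ensembl 94), which holds each of the 58735 gene IDs, gave names, exon lengths and GRCh38 coordinates. GC content is that of the longest transcript.

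Multiplying FPKM by exon length gave whole numbers of fragments after division by the value of 1 fragment in that library (100% of values above 0, within 0.01), so fragments were recovered. The library scale in the values followed the median over genes of fragments relative to the geometric mean of the 4 libraries, not the recovered total. A count of 0 allows 3 fragments (0.177 to 0.202 CPM), which covers counting error only. The main test was limma-trend (limma 3.58.1, R 4.3.3) on log2(FPKM + 1) with a group term, for genes with a mean of at least 1 FPKM, two-sided, with Benjamini-Hochberg adjustment over all tested genes and a threshold of 0.05. Intervals are 95%.

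Alternatives were a pseudocount of 0.1, no filter, a block for replicate number, leaving out a library at a time, limma-voom with TMM factors on recovered fragments (mean of at least 10), and subtraction of a loess surface in GC content and length from each library (span 0.3). A crossed pairing and scaling to recovered totals were added after seeing the data. The tests were tested on simulated data, which held no trend on GC content and so do not show how the tests act on these libraries. The 32 genes and the lists were chosen with earlier results of these data known. All 32 are named. Of each further list, up to 2 genes are named, those of largest absolute difference where the higher of the group means reached 5 FPKM. Every comparison of 2 libraries differed by more than sampling noise (chi-square per degree of freedom 12.5 to 38.9).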

Additional observations from a re-analysis of the deposited data

How the results depend on the processing

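Of the 32 genes, 16 kept their direction in all 13 alternative settings and 16 did not. A block or the absence of a filter cannot change a difference in this balanced design, so several of the 13 repeat another. The 0 genes called in limma-trend over all tested genes became 122 with the replicate block, 16 in limma-voom and 1 with the GC and length trend removed. Leaving out a library gave 112 to 632, the lone library of a group being assumed to vary like the other group. Among the 32 the count was 0 to 3 with a library left out, the 3 being TUBGCP6, MZT2A and MZT2B without shNME7 1, and 0 with the replicate block. The fit without shNME7 1 also gave the highest count over all tested genes, and the share of the 32 was not compared with it. Its lone shNME7 library, shNME7 2, had a Spearman rho of 0.66 with GC content over the tested genes. The GC content was 61.4% for TUBGCP6, 61.3% for MZT2A and 67.8% for MZT2B. Whether GC content accounts for these calls was not tested. The replicate numbers were not shown to pair the samples: the differences between replicates 1 and 2 correlated at -0.35 between the groups over the tested genes. A crossed pairing called 0 genes. The median over the 32 ran from -0.162 to -0.0475 with a library left out. It was -0.0378 with the GC and length trend removed, without a block, with the replicate block and with the crossed block.

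With that trend removed, under either block or none, the direction flipped for TUBG1 (-0.0255), TUBGCP2 (-0.0550), CEP250 (0.0103), HAUS2 (0.0215) and CEP63 (0.00176). Leaving out a library flipped others, over ranges of -0.0607 to 0.291 for TUBG1, -0.166 to 0.120 for TUBG2, -0.163 to 0.194 for TUBGCP2, -0.360 to 0.134 for MZT1, -0.319 to 0.0644 for NEDD1, -0.240 to 0.224 for PCNT, -0.268 to 0.00833 for NIN and -0.359 to 0.00837 for CEP192. The ranges were -0.154 to 0.118 for CEP250, -0.148 to 0.00245 for HAUS1, -0.255 to 0.186 for HAUS2, -0.334 to 0.0259 for HAUS6, -0.271 to 0.0643 for CEP63, -0.398 to 0.0535 for SASS6, -0.222 to 0.0321 for CENPJ and -0.0446 to 0.165 for CEP55. They were -0.145 to 0.0527 for HAUS4, -0.0154 to 0.607 for LRRC45, -0.402 to 0.0336 for NEK7 and -0.0949 to 0.331 for NEK6. The cause was not tested.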
